A study of Oryza sativa with 19 samples.

Results

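The 8476 probes described here carry the class name END3TU in the array files, among 84068 non-control probe positions on 2 array designs. They were chosen by name alone, as every non-control probe whose name holds the element E3TU, and 4478 of them lie on design S1 and 3998 on design S2, with none on both. The class name points to transcription units known by their 3′ ends, and the files do not spell it out further. Each name gives a chromosome, a running number and a strand letter: in R03-E3TU-01784R, for example, R03 stands for chromosome 3, the 5 digits are the running number and the last R is the strand. The members cover all 12 rice chromosomes, with between 445 members on chromosome 9 and 1182 on chromosome 1, and 4171 names end in F and 4305 in R.

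The arrays measured messenger RNA of 5 groups, NB callus, NB panicle, NB root, IR64 shoot and NB shoot. NB is Nipponbare, the japonica rice whose sequence the probes were designed on, and IR64 is an indica rice, so that RNA amount and sequence match to the probe cannot be told apart in IR64. Callus is undifferentiated tissue, raised here from the scutellum of the seed on a medium with the auxin 2,4-D, panicles were taken late in the boot stage from the field, roots came from seedlings in hydroponic culture and shoots from seedlings in greenhouse soil. Growth lasted 10 days for shoots and roots and 28 days for callus per the labels, with no time given for panicle. No mutation or treatment is named for any group. Each group had 2 arrays per design, except NB panicle with 1 array on S2, which makes 10 arrays of S1 and 9 of S2. An array carried the same RNA in both dyes. The labels give Trizol for IR64 shoot and RNeasy for all NB samples, while the study's methods give Trizol for shoots of both varieties and RNeasy for the other tissues, and growth place and, per the methods, age differ between tissues. Per the file headers the replicate 1 arrays were scanned in sessions that follow tissue, with NB shoot in its own. Tissue cannot be told apart from extraction, place and age, nor tissue or variety from scan session in replicate 1. The RNA was pooled over plants and the arrays of a group may be repeated hybridisations of 1 pool, so errors and p-values may cover the spread between hybridisations only.

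As background, a plant messenger RNA ends where its precursor is cut behind a polyadenylation signal and given a poly(A) tail. Sequencing cDNA clones from that tail marks the end of a transcription unit and its strand, also where the rest of the transcript is not known. A probe placed there reads the amount of RNA that reaches this end, and says nothing of the protein, if any, that the RNA encodes. None of the 8476 names matched the reference table of rice genes, so the members are given by their names and no function is assigned to any of them; for the same reason the tissue labels could not be checked against marker genes.

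A signal is given on the study's own scale, with the median of each array and channel set to 1000 and an upper limit of 100000. A probe counted as detected on an array when both channels were well above background, and in a tissue when this held on every array of it. On single arrays between 76.5% and 91.4% of the END3TU probes of S1 and between 70.9% and 92.8% of those of S2 were detected. On S1 the share averaged 85.6% for END3TU probes and 90.1% for probes on full-length cDNA loci. It was lower for END3TU on 10 of 10 arrays, with a mean difference of −4.49 points (range −6.67 to −2.92; exact sign-flip permutation over arrays, two-sided, p = 0.00195, the smallest that 10 arrays allow). Against probes on predicted gene models, with 70.8%, END3TU probes were higher on 10 of 10 arrays, by 14.8 points (9.63 to 18.6, the same exact p). On S2 the averages were 81.6% for END3TU, 86.4% for cDNA and 62.6% for gene models. END3TU was lower than cDNA on 9 of 9 arrays, with a mean difference of −4.78 points, and higher than gene models on 9 of 9, by 19.0 points (each exact p = 0.00391, the smallest for 9 arrays). Without the step of 2.6 background SD in the detection rule the differences kept their sign on every array but were smaller, at −1.51 points from cDNA and 3.23 from gene models on S1 and −1.87 and 5.84 on S2. The arrays share their probes, so these p-values speak of arrays and not of other probe sets. The test also flipped every array as an independent unit, although arrays of a group may be repeated hybridisations of the same RNA pool. Its p-values may therefore be too small, and they do not speak of other tissues or plants. The repeated sign describes the same probes measured again on each array.

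Most END3TU probes were broadly detected. Of the 8476, 5687 (67.1%) were detected in all 4 NB tissues, 998 (11.8%) in 3, 644 (7.60%) in 2, 580 (6.84%) in 1 and 567 (6.69%) in none. Of those 567, 271 were nevertheless detected on at least 1 NB array, and 283 members in all were detected on no array of the series. The share detected in all 4 lay between the classes, with 67.1% for END3TU against 75.7% for cDNA and 46.0% for gene-model probes, and so did the share detected in none, with 6.69% against 4.82% and 24.9%. S1 gave broader detection than S2, with 72.3% of its END3TU probes in all 4 tissues against 61.3%. All probes differed likewise, with 68.0% on S1 and 56.2% on S2, so this is not particular to the class. On the replicate 1 arrays alone, an alternative chosen after the data were seen, the designs were alike. There 3579 of 4478 members on S1 and 3200 of 3998 on S2 were detected in all 4. Members detected in more tissues were also brighter: in the brightest tissue of a probe the median log2 signal was 7.26 for members detected in no tissue, 8.77 in 1, 9.57 in 2, 10.43 in 3 and 12.35 in all 4. Over all probes these medians were 7.31, 8.51, 9.23, 9.93 and 12.32. Detection itself requires signal above background, so such a rise is built into the rule and is not particular to the class.

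**Figure D1:**
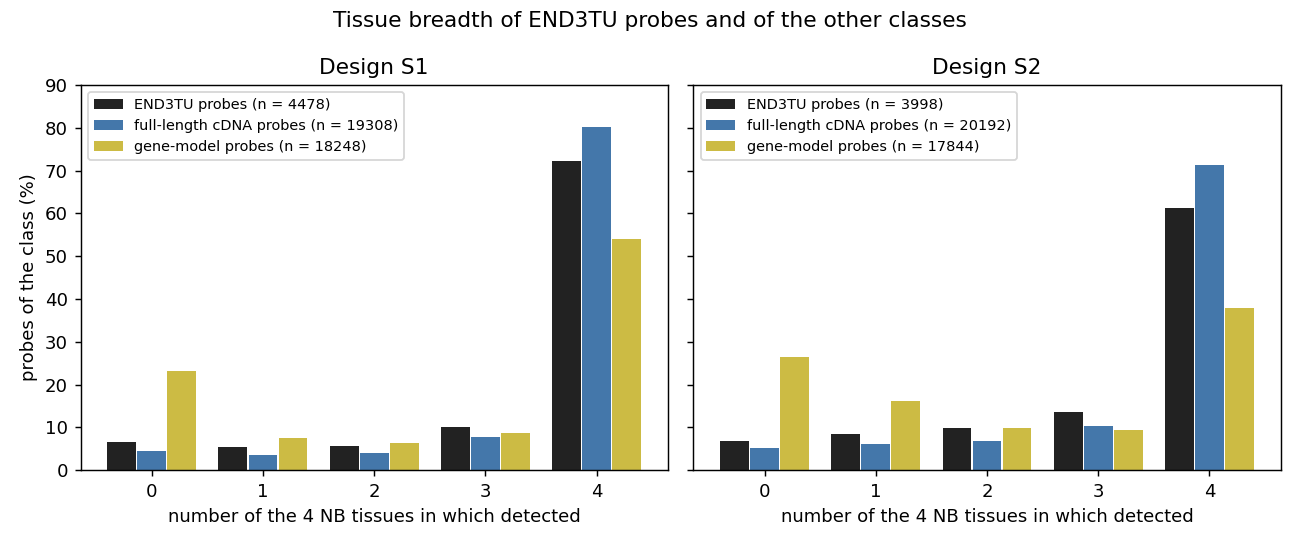
Share of the probes of each class (%) against the number of NB tissues, 0 to 4, in which they were detected, for designs S1 and S2 (bars, 1 per class). END3TU probes (black) stand between cDNA probes (blue) and gene-model probes (yellow) at 4 tissues, with 72.3% on S1 and 61.3% on S2.

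By tissue, 6903 END3TU probes (81.4%) were detected in callus, 7454 (87.9%) in panicle, 7005 (82.6%) in root, 6168 (72.8%) in IR64 shoot and 6248 (73.7%) in NB shoot. NB shoot was the tissue that broad probes most often missed: 662 members were detected in callus, panicle and root but not in NB shoot, against 202 missed only in callus, 99 only in root and 35 only in panicle. The reverse, detection in a single NB tissue, held for 110 members in callus, 306 in panicle, 121 in root and 43 in NB shoot. Shares over all probes were not worked out for these counts, so they are not shown to be particular to the class. The array number enters these counts, since 241 of the 306 panicle probes are on S2, where panicle had 1 array to pass and the others 2. With only the replicate 1 arrays, an alternative chosen after the data were seen, the S2 counts were 86 for callus, 34 for panicle, 35 for root and 12 for NB shoot, and those of S1 were 90, 43, 43 and 28. Brightness moves with the tissue too. The median background-subtracted signal of an array was 167.2 and 100.4 on S1 and 178.7 and 45.0 on S2 in callus, against 100.3 and 56.1 on S1 and 82.0 and 40.7 on S2 in NB shoot, and tissue and brightness cannot be told apart.

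The typical level of the class differed little between tissues, but setting the median of all probes to 1000 on every array holds such medians close by itself. The median log2 signal of the 8476 members was 10.56 in callus, 10.44 in panicle, 10.51 in root, 10.23 in IR64 shoot and 10.33 in NB shoot, and the central 50% of the members in callus lay between 8.85 and 12.24. The order of these medians depends on the scaling: the median difference of the tested members between callus and NB shoot was 0.07 on S1 and 0.10 on S2 as scaled here, and −0.09 and −0.10 when arrays were scaled to their 75th percentile. Signals above 1000, the median probe of an array, were reached by 6282 members (74.1%) in 1 or more NB tissues and by 3800 (44.8%) in every one of the 4. Of the 7909 members detected in an NB tissue, callus was the brightest tissue of 2565 (32.4%), panicle of 1472 (18.6%), root of 1669 (21.1%) and NB shoot of 2203 (27.9%), and with the 75th percentile NB shoot came before callus.

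The index tau summarises how uneven a probe is over the 4 NB tissues, from 0 for equal signals to 1 for a signal in 1 tissue only. Its median was 0.476 for the 7909 END3TU probes, 0.474 for cDNA and 0.356 for gene-model probes. Above 0.85 were 803 END3TU probes (10.2%), against 8.82% of cDNA and 3.12% of gene-model probes, and among those detected in all 4 tissues 6.96%, against 6.46% and 2.35%. The classes differ in brightness, which moves tau through the background signal, and its part in these shares was not tested. The 803 were brightest in root in 270 cases, in NB shoot in 223, in callus in 159 and in panicle in 151.

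The SD between replicates of a group averaged 0.46 on S1 and 0.67 on S2 on the log2 scale for the END3TU probes tested, against 0.45 and 0.66 for all probes, so S2 needs larger differences for a call.

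The next question was how many members preferred a tissue. Of the 8476 members, 7926 were detected in at least 1 group and entered limma fits over all 72984 such probe positions, with the p-values adjusted by Benjamini-Hochberg over all probes of a design and calls at adjusted p below 0.05. A filter of this kind keeps a probe that is bright in 1 group only, so the counts below describe the tested members and are read beside the share of all probes called. Of the 7926, 3475 (43.8%) were called in at least 1 of the 6 pairs of NB tissues, against 36.6% of all probes tested. Blocking on the replicate number gave 5320 members (67.1%), against 60.0% of all probes.

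Callus against shoot gave 1321 members (16.7%) higher in callus and 871 (11.0%) lower, against 13.7% and 10.7% of all probes. Root against shoot gave 1139 (14.4%) higher and 732 (9.24%) lower, against 11.5% and 8.00% of all probes. Panicle against shoot gave 898 (11.3%) higher and 578 (7.29%) lower, against 9.49% and 6.31%; scaling to the 75th percentile turned this split round, to 893 higher and 922 lower. Callus against root gave 613 (7.73%) higher and 735 (9.27%) lower, against 5.57% and 7.15% of all probes. Callus against panicle gave 522 (6.59%) higher and 594 (7.49%) lower, against 4.16% and 6.57%. Panicle against root gave 453 (5.72%) higher and 507 (6.40%) lower, against 4.60% and 3.98%. Which direction had more calls depended on single arrays and on the fit. Without callus replicate 1 the split was 860 higher and 589 lower in callus against root and 630 and 446 in callus against panicle, and without callus replicate 2 it was 284 and 690, and 286 and 607. Callus against shoot gave 698 higher and 736 lower without callus replicate 2, and its total of 1434 was then below the 2123 of root against shoot. Fits of 2 groups at a time gave 1461 calls in callus against shoot and 1942 in root against shoot.

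The replicate block raised each of these totals by over 1.5 times. With it callus against shoot gave 2116 members (26.7%) higher and 1422 (17.9%) lower, against 22.6% and 18.7% of all probes. Root against shoot gave 1853 (23.4%) and 1243 (15.7%), against 19.7% and 14.7%, and panicle against shoot 1600 (20.2%) and 1134 (14.3%), against 18.0% and 13.0%. Callus against root gave 1266 (16.0%) and 1214 (15.3%), against 12.4% and 12.5%, callus against panicle 886 (11.2%) and 1020 (12.9%), against 8.17% and 11.4%, and panicle against root 833 (10.5%) and 775 (9.78%), against 8.64% and 6.73%. With and without the block the share of members called higher stood above that of all probes in each pair. The share called lower did so too, except in callus against shoot with the block, at 17.9% against 18.7%. More members were thus called in both directions, which was not tested. Over the tested members the median log2 difference in callus against panicle was 0.14 on S1 and 0.19 on S2, beside 0.05 and 0.09 over all probes.

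**Figure D2:**
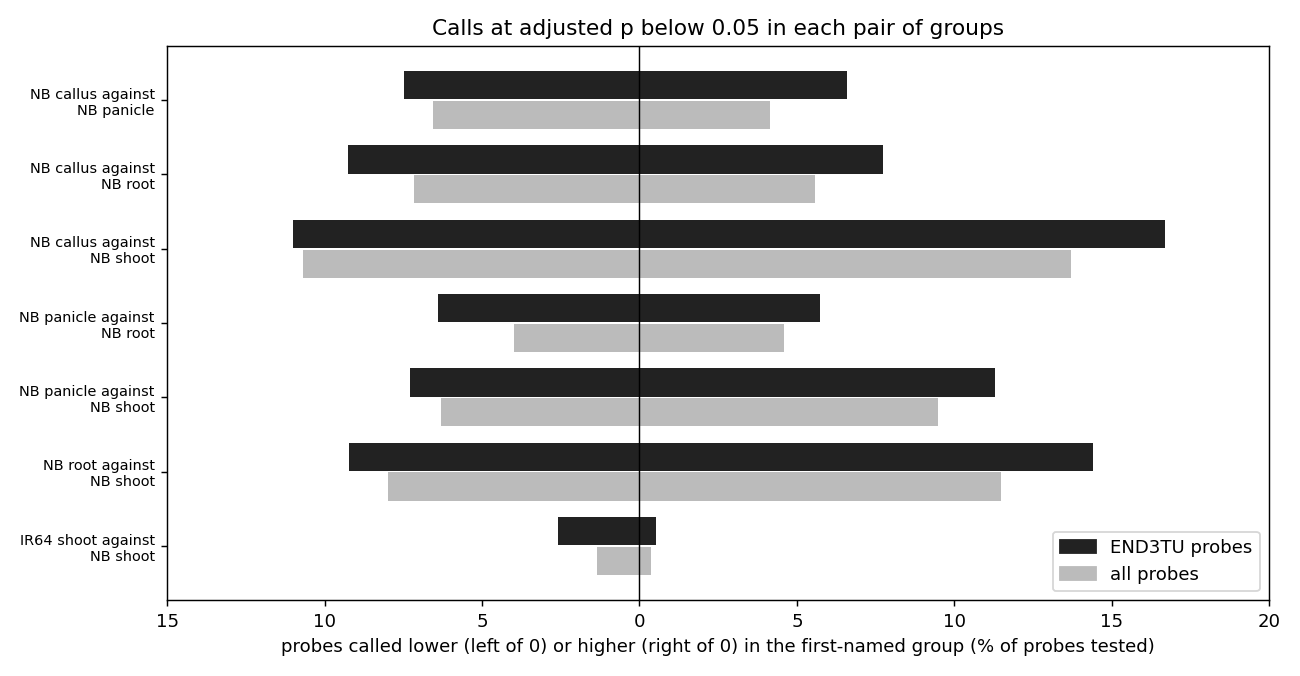
Share of tested probes called (%) in each pair of groups, lower in the first-named group to the left of 0 and higher to the right, for END3TU probes (black) and all probes (grey). In NB callus against NB shoot, 16.7% of END3TU probes were called higher and 11.0% lower; IR64 shoot against NB shoot has 0.530% and 2.59%.

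Enrichment in an NB tissue was defined as a call above each of the remaining 3. It held for 274 members in callus (3.46% of those tested, against 2.22% of all probes), 196 in panicle (2.47%, against 1.81%), 318 in root (4.01%, against 2.39%) and 312 in NB shoot (3.94%, against 3.69%). S1 held most of them, with 224, 162, 235 and 239 in the same order of tissues, and S2 held 50, 34, 83 and 73. With the replicate block there were 513 in callus, 341 in panicle, 489 in root and 603 in NB shoot, against 4.84%, 3.35%, 4.05% and 7.26% of all probes. Root-enriched members had the widest gaps: the median of the smallest log2 difference from another tissue was 2.92 in root, 2.04 in callus, 2.35 in panicle and 2.35 in NB shoot, and 151 root members lay at least 8-fold above every other NB tissue, against 75 in callus, 86 in panicle and 101 in NB shoot. Gaps were not worked out for all probes, so this order is not shown to be particular to the class. Enrichment seldom meant detection in 1 tissue alone. That held for 36 of the 274 callus members, 46 of the 196 in panicle, 55 of the 318 in root and 26 of the 312 in NB shoot, while 159, 92, 161 and 227 of them were detected in all 4 tissues. For NB shoot the closest other tissue was panicle in 149 of the 312.

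Among the root-enriched members with the widest gaps, R10-E3TU-00469R on chromosome 10 had signals of 48790 and 65259 on the S1 root arrays, against 43 and 72 in callus, 62 and 55 in panicle, 72 and 125 in IR64 shoot and 65 and 119 in NB shoot. It was detected on the root arrays and on no other array, and its root mean lay at least 267-fold above NB shoot, the nearest tissue (limma adjusted p = 2.38e-06). A fold is given as a lower bound where no array of the dimmer tissue was above background. R10-E3TU-00467R, with a number only 2 away, the same strand letter and a probe on the other design, was likewise bright in root alone. It had 44924 and 74304 in root. Its other signals were 81 and 227 in callus, 60 in panicle, 79 and 177 in IR64 shoot and 82 and 201 in NB shoot. Root lay at least 331-fold above callus and 216-fold above NB shoot (largest limma adjusted p of its 3 comparisons 0.00227). Both probes were root-only in detection, and the order of the undetected groups differed between them.

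R07-E3TU-00082F had 16918 and 41010 in root, against 42 and 84 in callus, 62 and 64 in panicle, 81 and 117 in IR64 shoot and 70 and 116 in NB shoot, at least 125-fold above NB shoot. R01-E3TU-01652R had 11144 and 17701 in root and between 54 and 136 on all other arrays, at least 66.5-fold above NB shoot. R12-E3TU-00396R was of another kind. It reached 83193 and 94104 in root and was still detected in panicle at 196 and 217 and on 1 array each of callus, IR64 shoot and NB shoot, with a fitted log2 difference from NB shoot of 8.11 (SE 0.35, adjusted p = 2.20e-06), where 1 of the 2 NB shoot arrays was not above background.

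For panicle, R05-E3TU-01164F on chromosome 5 had 33114 and 50444 on the S1 panicle arrays, against 43 and 69 in callus, 65 and 62 in root, 135 and 195 in IR64 shoot and 62 and 203 in NB shoot. It was detected in panicle only and lay at least 193-fold above NB shoot (adjusted p = 9.93e-06). R03-E3TU-00513R, with 5665 and 8139 in panicle, and R02-E3TU-00377F, with 4530 and 8315, were also detected in panicle only, at least 32.1-fold and 29.1-fold above NB shoot. R04-E3TU-00602F had 26441 and 27988 in panicle and 334 and 399 in root, where it was detected too, a log2 difference of 6.22 (SE 0.38). R02-E3TU-01299F had 10876 and 14170 in panicle, against 240 and 213 in root, a difference of 5.78 (SE 0.35).

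For callus, R09-E3TU-00453F on chromosome 9 had 19858 and 35931 on the S1 callus arrays, against 188 and 221 in panicle, 187 and 279 in root, 192 and 310 in IR64 shoot and 156 and 292 in NB shoot. Outside callus it was detected on 1 of the 2 root arrays only, and the fitted log2 difference from root, which includes the undetected array, was 6.87 (SE 0.44, adjusted p = 9.91e-06). R11-E3TU-00813F had 4990 and 9512 in callus and was detected on no other NB array, at least 32.6-fold above NB shoot. R11-E3TU-00853F on the same chromosome had 3974 and 8358, at least 39.3-fold above panicle and 27.3-fold above NB shoot. R02-E3TU-01602F had 17812 and 38842 in callus, against 544 and 728 in panicle, its closest tissue. R04-E3TU-00294R, on S2, had 19545 and 45034 in callus against 534 on the panicle array, a log2 difference of 5.80 (SE 0.61, adjusted p = 0.00400), and was detected at low level in every other group on at least 1 array.

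For NB shoot, R03-E3TU-01960F had the widest gap, with 69369 and 68542 in NB shoot and 123 or less on every callus, panicle and root array, at least 454-fold above root. R02-E3TU-00136F, on S2, had 97894 and 75857 in NB shoot, against 149 and 220 in callus, 211 in panicle and 395 and 428 in root, a log2 difference from root of 7.71 (SE 0.46, largest adjusted p 0.00319). R04-E3TU-00861F had 55858 and 70746 in NB shoot and 620 or less in the other 3 NB tissues, and R04-E3TU-00959F had 25289 and 26783, at least 117-fold above root. R07-E3TU-01224F had 12689 and 21037 in NB shoot and was detected on no callus, panicle or root array, at least 85.5-fold above callus and 81.7-fold above root. The 4 members on S2 did not pass in fits of 2 groups at a time, with an adjusted p of 0.169, and neither did R04-E3TU-00294R for callus (0.356) and R10-E3TU-00467R for root (0.176). For R04-E3TU-00861F the largest adjusted p was 0.0519 without NB shoot replicate 1 and 0.0593 without replicate 2, and for R07-E3TU-01224F it was 0.0609 without replicate 2. IR64 shoot takes no part in the definition of enrichment, and it was bright for all 5: 62360 and the upper limit for R03-E3TU-01960F, 53730 and the upper limit for R02-E3TU-00136F, 16221 and 42646 for R04-E3TU-00861F, 8292 and 19062 for R04-E3TU-00959F and 7852 and 18925 for R07-E3TU-01224F.

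**Figure D3:**
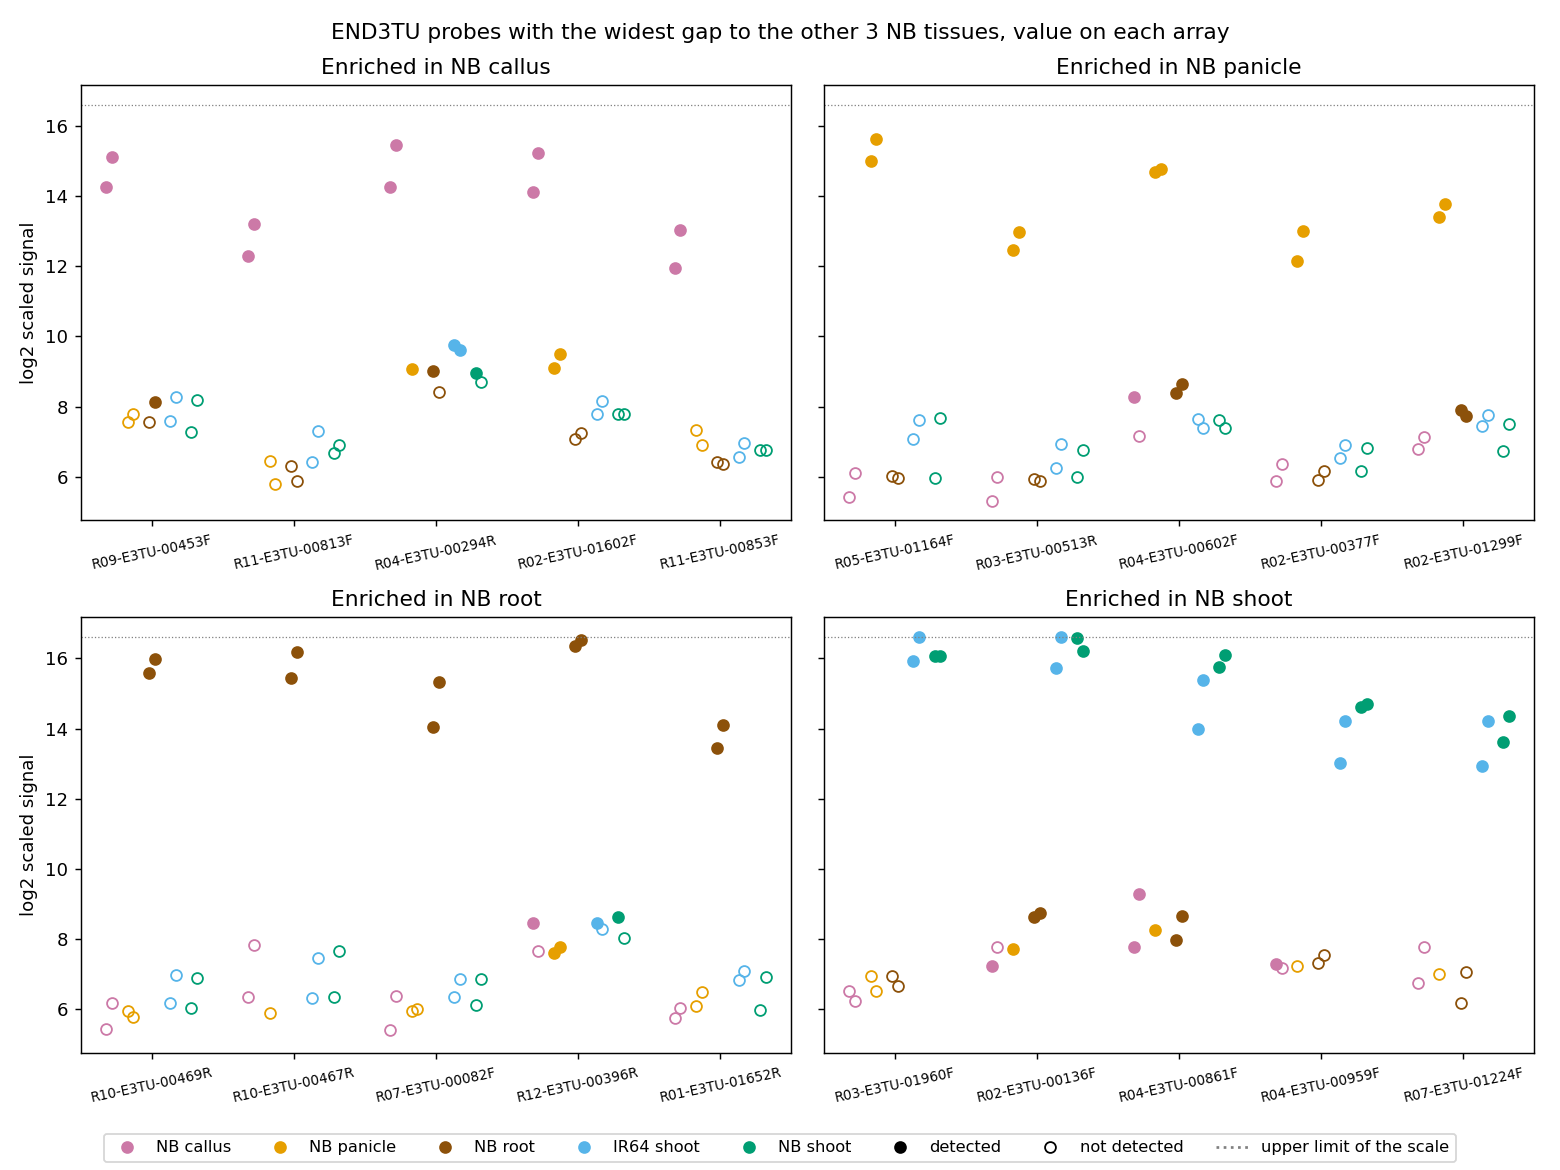
Log2 scaled signal on each array (points, coloured by group; open where not detected; dotted line at the upper limit) of the 5 END3TU probes with the widest gap for each NB tissue. In every panel the arrays of the enriched tissue lie above all other NB arrays, and in the NB shoot panel the IR64 shoot arrays are high as well.

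The IR64 arrays showed the same for most of the members enriched in NB shoot. Of the 312 members enriched in NB shoot, 262 (84.0%) had both IR64 shoot arrays above every callus, panicle and root array, against 1089 of all 7926 tested members (13.7%) and 20.0% of all probes tested. The comparison tissues are those of the definition, so this is a description. The mean of IR64 shoot lay above the highest of the other 3 means by a median of 1.90 on the log2 scale for the 312 members, and 12 of them were detected on no IR64 array.

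Beside single tissues, members were shared by pairs. Members called higher in both tissues of a pair than in either tissue outside it numbered 95 (1.20%) for panicle and root, against 1.13% of all probes, 83 (1.05%) for panicle and NB shoot, against 1.06%, and 75 (0.946%) for callus and root, against 0.659%. There were 72 (0.908%) for callus and panicle, against 0.666%, 51 (0.643%) for root and NB shoot, against 0.323%, and 27 (0.341%) for callus and NB shoot, against 0.145%. Members low in 1 tissue alone, with a call below every remaining tissue, were 105 (1.32%) for callus, against 1.47% of all probes, 26 (0.328%) for panicle, against 0.190%, 33 (0.416%) for root, against 0.403%, and 318 (4.01%) for NB shoot, against 3.47%. Being low in NB shoot was the most frequent of these 10 patterns among the members and among all probes tested alike, so it is not particular to the class. With the replicate block there were 212 for panicle and root, against 2.40% of all probes, 179 for panicle and NB shoot, against 2.05%, 129 for callus and root, against 1.29%, and 159 for callus and panicle, against 1.47%. There were 95 for root and NB shoot, against 0.684%, and 66 for callus and NB shoot, against 0.330%. Low alone were then 243 in callus, against 3.03%, 65 in panicle, against 0.459%, 113 in root, against 1.02%, and 699 in NB shoot, against 8.21%.

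The member with the widest gap below the upper limit was taken for each of these patterns, a choice made after the values were seen. R01-E3TU-02267F was high in callus, at 8493 and 18651, and root, at 6456 and 9099, and lay between 94 and 156 on every other array of S1, where it was not detected. R06-E3TU-00161R was high in callus, at 7561 and 11545, and panicle, at 12022 and 13318, against 411 and 426 in root, 260 and 152 in IR64 shoot and 161 and 139 in NB shoot. R06-E3TU-00552F was high in panicle, at 15676 and 26282, IR64 shoot, at 78442 and the upper limit, and NB shoot, at 49180 and 66122, against 292 and 342 in root, and was not detected in callus.

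On S2, R11-E3TU-00444R was high in panicle, at 80411 on its 1 array, and root, at 27117 and 34743. It had 458 and 235 in callus, 1363 and 1908 in IR64 shoot and 607 and 550 in NB shoot. R01-E3TU-02247F was high in root, at 7038 and 15906, and NB shoot, at 65587 and 98776. It had 47792 and the upper limit in IR64 shoot, against 485 and 154 in callus and 373 in panicle. R01-E3TU-00934R was high in callus, at 18598 and 23227, IR64 shoot, at 6833 and 11136, and NB shoot, at 9345 and 7014, against 448 in panicle and 524 and 368 in root. R08-E3TU-00761F was missing from callus alone, at 40 and 132 there, against 22098 in panicle, 1750 and 3020 in root, 13318 and 30283 in IR64 shoot and 50758 and 40875 in NB shoot. R12-E3TU-00117F, on S1, was low in shoots of both varieties, at 1428 and 2161 in IR64 and 1477 and 880 in NB, and had at least 21304 on the callus, panicle and root arrays. R02-E3TU-00015F, on S2, was low in panicle, at 86 on its 1 array. It had between 3325 and 11540 in callus, root and NB shoot, and 541 and 1737 in IR64 shoot. R03-E3TU-00527R, on S1, was low in root, at 408 and 293. It had between 3062 and 25015 on the other NB arrays, and 1903 and 3068 in IR64 shoot.

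The last comparison was between the varieties. In IR64 shoot against NB shoot, 42 members (0.530%) were called higher in IR64 and 205 (2.59%) lower, against 0.380% and 1.34% of all probes tested. Of the cDNA probes 0.287% were called higher and 1.71% lower, and of the gene-model probes 0.463% and 0.471%; these shares were not tested against each other. With the replicate block 130 members were higher and 400 lower, against 1.15% and 2.94% of all probes. A fit of the shoot arrays alone called 1 member higher and 32 lower. The 205 lower members had a median log2 difference of −3.09 and 63 of them were detected on no IR64 array of their design. Detection in all 4 NB tissues held for 179 of the 205, and 45 members met both conditions. The calls picked members for low signal in IR64, and the same counts are not given for all probes. Of the 42 higher members, 12 were detected on no NB shoot array. Without regard to calls, 291 of the 5687 members detected in all 4 NB tissues (5.12%) were not detected in IR64 shoot, against 3.45% of cDNA and 4.02% of gene-model probes, and 17 members were detected in IR64 shoot and in no NB tissue.

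Among the members lowest in IR64, R10-E3TU-00562R had 70 and 162 in IR64 shoot, not above background, against 13708 and 22117 in NB shoot, and was detected in every NB tissue, at 4569 and 8938 in callus, 6869 in panicle and 3582 and 5400 in root. NB shoot lay at least 67.0-fold above IR64 shoot (adjusted p = 0.00602). R08-E3TU-00622R had 68 and 161 in IR64 shoot, against 12367 and 17496 in NB shoot, at least 56.6-fold (adjusted p = 0.0102), and its NB tissues differed widely, with 238 and 918 in callus, 5295 in panicle and 1636 and 2364 in root. R12-E3TU-00615F was detected in IR64 shoot, at 424 and 984, and stood at the upper limit on both NB shoot arrays, so its log2 difference of −7.27 (SE 0.67, adjusted p = 0.00858) is short of the full size. R04-E3TU-00518R, on S1, had 1673 and 807 in IR64 shoot, against 90783 and 87950 in NB shoot, and was bright in each other NB tissue (difference −6.27, SE 0.39, adjusted p = 8.28e-05). R03-E3TU-00836F led this list with −8.18 (SE 0.73).

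Among the higher ones, R11-E3TU-00879F was at least 138-fold above NB shoot, where it was not detected. In the other NB tissues it had 252 and 461 in callus and 914 in panicle, but 10529 and 28609 in root, so a low value in NB shoot did not extend to all NB tissues. R09-E3TU-00304R had 17051 and 47302 in IR64 shoot, against 226 and 339 in NB shoot, at least 97.8-fold (adjusted p = 0.0123), and 1466 on the panicle array was its highest NB value. R06-E3TU-00420R had 7110 and 19044 in IR64 shoot, against 95 and 218 in NB shoot, at least 43.6-fold (adjusted p = 0.0122), and was detected on no NB array of any tissue. R12-E3TU-00292R had 33939 and 71252 in IR64 shoot, against 1343 and 1443 in NB shoot (difference 5.14, SE 0.51), and R02-E3TU-00382R had 3762 and 7703 against 128 and 183, at least 25.5-fold. Of these 10 members, 7 are on S2, and each of the 7 lost its call when any of the 4 shoot arrays of S2 was left out (R10-E3TU-00562R, for example, had adjusted p between 0.0947 and 0.132 without 1 array). In the fit of shoots alone R04-E3TU-00518R kept its call and the other 9 did not, with adjusted p between 0.0563 for R12-E3TU-00292R and 0.171 for R06-E3TU-00420R.

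**Figure D4:**
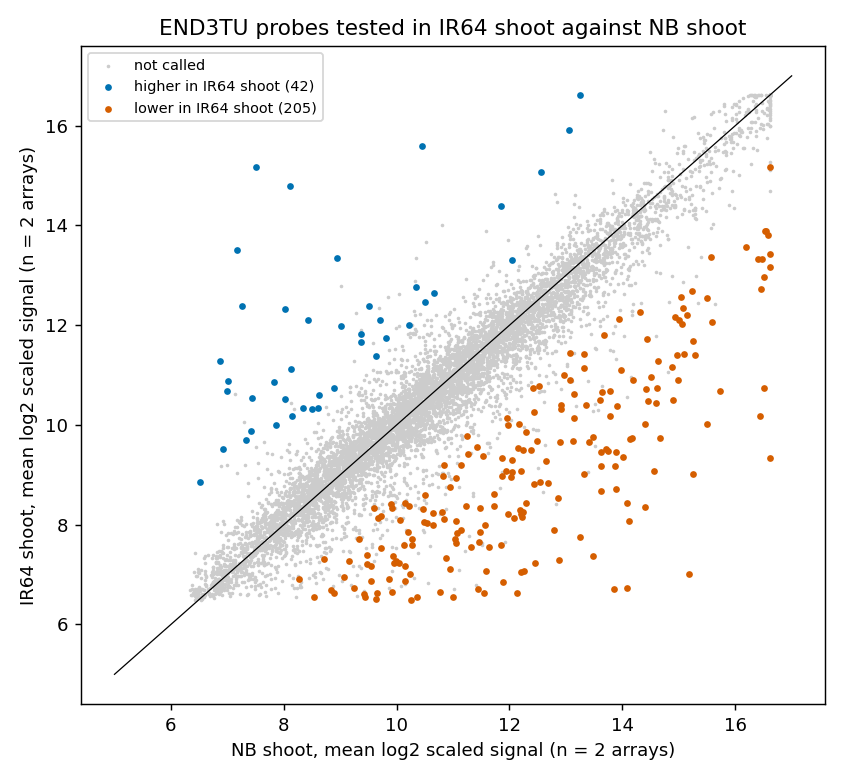
Mean log2 scaled signal in IR64 shoot (vertical) against NB shoot (horizontal) for each END3TU probe tested, with the line of equal signal; blue marks the 42 probes called higher in IR64 shoot and orange the 205 called lower. The orange points reach down to background level across much of the range of NB shoot signals.

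Members with the steadiest signal were at first those at the top of the scale. The rule of the smallest range of the 5 group means among the 5345 members detected on every array picked R01-E3TU-01639F, R07-E3TU-00616R and R08-E3TU-00361R on S1 and R12-E3TU-00900F, R01-E3TU-00874R and R02-E3TU-01545F on S2. All of these but R02-E3TU-01545F were at the upper limit of 100000 on all arrays, except for 1 NB shoot array of R01-E3TU-00874R at 91427, so that their range has no measured size. The rule of the highest lowest mean likewise gave R01-E3TU-01639F, R06-E3TU-00670F and R07-E3TU-00616R, which tie with the other members at that limit. In all 7 members were at the limit on every array measured, and 333 on at least 1.

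Below the limit, a condition added after the values were seen, the steadiest members spanned the scale. R05-E3TU-01218F lay between 917 and 1281 on the 10 arrays of S1, with a range of its 5 group means of 0.10 on the log2 scale, and R02-E3TU-01545F between 779 and 1395 on the 9 of S2, with 0.11. R08-E3TU-00699R, also on S2, lay between 5111 and 6263. R08-E3TU-00862R lay between 16110 and 31237 on S1, and its 2 IR64 arrays mark both ends of that span, so that its steadiness is that of the means. Steadiness is likewise that of the means for R02-E3TU-00443F on S1, between 1696 and 4311, and R08-E3TU-00889F on S2, between 3627 and 11835. Over all members detected on every array the median range of means was 1.47 on S1 and 1.60 on S2.

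The running number gives the members an order on each chromosome. For every 2 members on the same chromosome with the same strand letter, the tissue profiles (the 5 group means, centred per group and probe) were correlated, for members detected in at least 1 NB tissue. Of 2314 pairs with numbers 1 apart, 207 (8.95%) had a correlation above 0.9, against 129 of 2016 (6.40%) at 2 apart, 105 of 2070 (5.07%) at 5 apart, 77 of 2010 (3.83%) at 10 apart and 61 of 1884 (3.24%) at 100 apart. With opposite strand letters it was 87 of 1980 (4.39%) at 1 apart and 84 of 1946 (4.32%) at 2 apart. It was 102 of 1919 (5.32%) at 5 apart, 91 of 1952 (4.66%) at 10 apart and 63 of 1803 (3.49%) at 100 apart. The same-strand share was thus the higher one at 1 and 2 apart, and the lower one at each greater distance taken. Probes of a pair share arrays only when both are on 1 design. The share at 1 apart with the same strand was 8.83% of 1166 pairs on 1 design and 9.06% of 1148 pairs on different designs. The median correlation at 1 apart was 0.15. Among enriched members with a tested same-strand neighbour 1 number away, the neighbour was enriched in the same tissue for 17 of 107 in root, 11 of 105 in NB shoot, 11 of 70 in callus and 2 of 53 in panicle, and at 20 numbers away for 3 of 86, 3 of 75, 3 of 66 and 2 of 56. These choices were made after the data were seen. Whether the 2 probes of a pair lie in the same transcript is not given in the files.

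**Figure D5:**
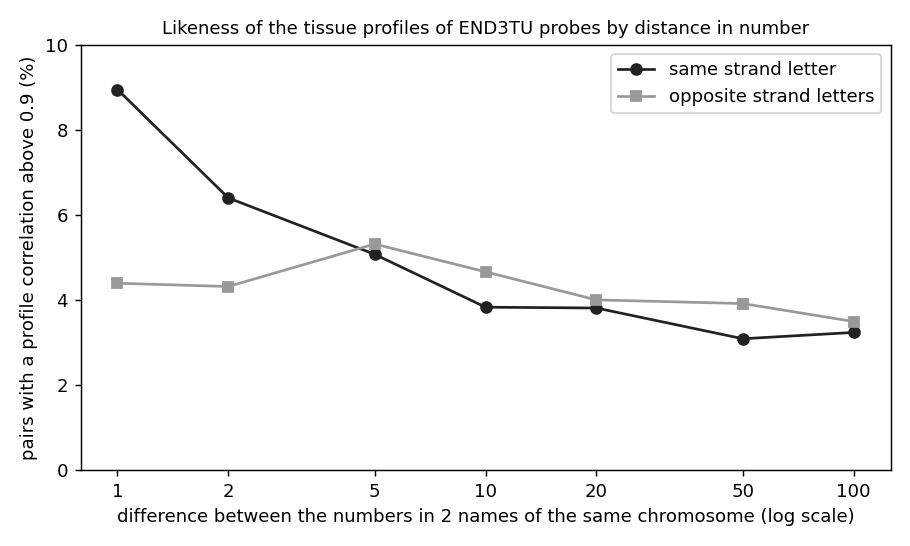
Share of pairs of END3TU probes (%) whose tissue profiles correlate above 0.9, against the difference between the numbers in their names (log scale), for pairs with the same strand letter (circles) and opposite letters (squares). Same-strand pairs fall from 8.95% at 1 apart to 3.24% at 100 apart, while opposite pairs lie between 3.49% and 5.32%.

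In 1142 cases both strand letters carry the same number on a chromosome, and in 1007 of them each member was detected in some NB tissue. The files do not say that a shared number means a shared place. Their profiles were about as often unlike as alike: the median correlation over 5 groups was 0.02, with 43 pairs (4.27%) above 0.9 and 36 (3.57%) below −0.9. The 4.27% lies within the 3.49% to 5.32% of opposite-strand pairs with different numbers, so a shared number did not set these pairs apart. The pairs named next are the extremes of the 1007, each correlated over 5 groups only. The most different pair lies on chromosome 11. R11-E3TU-00392F had 5044 and 8225 in callus, 8062 and 9397 in panicle, 15925 and 21884 in root, 13477 and 16570 in IR64 shoot and 16125 and 15598 in NB shoot, while R11-E3TU-00392R had 2167 and 2730 in callus, 1624 in panicle, 800 and 711 in root, 1314 and 555 in IR64 shoot and 1210 and 775 in NB shoot (r = −0.99). Callus was the lowest group of the F probe and the highest of the R probe, while IR64 shoot stood below NB shoot in both. The pairs R05-E3TU-00877F with R05-E3TU-00877R and R12-E3TU-00416F with R12-E3TU-00416R followed, at −0.99 and −0.98. R12-E3TU-00416F was detected on no shoot array of either variety. The NB shoot arrays gave 5612 and 2482 for R12-E3TU-00416R and 484 and 853 for R05-E3TU-00877F, so the contrast in these pairs rests on means of unlike replicates.

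Among the pairs most alike, R01-E3TU-02018F and R01-E3TU-02018R (r = 0.98) were both highest in callus, at 2860 and 9786 for F and 4465 and 10358 for R, and lowest in shoots, at 978 and 1470 in IR64 and 1030 and 1215 in NB for F, and 600 and 975 in IR64 and 789 and 624 in NB for R. R12-E3TU-00684F with R12-E3TU-00684R (r = 0.99) and R01-E3TU-01259F with R01-E3TU-01259R (r = 0.98) were the others. R12-E3TU-00684R was not detected on several arrays, and the callus arrays of R01-E3TU-01259R gave 6850 and 959, so these likenesses rest on means of unlike replicates.

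By chromosome the class was even. The share of members detected in an NB tissue ran from 91.4% on chromosome 11 to 95.7% on chromosome 9, and members enriched in an NB tissue made up between 11.9% of those tested on chromosome 12 and 16.2% on chromosome 11. Of the F members 3893 of 4171 were detected in some NB tissue, and of the R members 4016 of 4305.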

How the data were processed

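Processed intensities of 19 two-channel Agilent arrays were used as deposited. The authors scanned the arrays and ran Feature Extraction, version 8.1.1.1 per the file headers, which subtracted the background with spatial detrending, normalized the dyes within an array and set flags (well above background: p of 0.01 and 2.6 background SD); arrays were not scaled to each other. Each channel was then scaled here to a median of 1000, capped at 100000 and put on the log2 scale, and the channels were averaged. Outlier spots were left out. Signal over background and the number of arrays limit the precision.

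One limma 3.58.1 fit per design (R 4.3.3) held its 5 groups and all probes detected in at least 1 group, with Benjamini-Hochberg adjustment per design and a threshold of 0.05; calls were then summed over the designs. Scripts were tested on simulated data. Same-numbered replicates deviated together in every pair of tissues (r 0.114 to 0.637 over 10 pairs on S1, 0.548 to 0.826 over 6 on S2). Per the file headers all replicate 2 arrays were scanned in 1 session. Replicate 1 was scanned by tissue on both designs: NB shoot in session 1, callus and IR64 shoot in session 2, panicle and root in session 3. The numbers thus pair the samples only in part. Values with the replicate block are given where they move a count by over 1.5 times. Named probes are the 5 with the widest gap per tissue below the cap with no overlap between arrays (panicle on S1 only), the 5 with the largest difference each way in IR64, the 3 steadiest per design, the 3 brightest, and the 3 most and least alike same-number pairs. "At least" folds set the mean of the brighter group against, per array of the dimmer one, the higher of its own signal and the lowest signal among probes well above background. Members, lists and tests were chosen with earlier results of these data known. Alternatives were scaling, background correction, blocks, filters, a 2-fold minimum, detection rules and leaving out arrays. Series-wide value tables were not used, and no probe sequence is printed.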

Additional observations from a re-analysis of the deposited data

How the results depend on the processing

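The differences in share detected kept their sign under the alternatives run, while the balance of higher and lower calls turned in several pairs. For panicle against shoot it was 893 higher and 922 lower with the 75th percentile and 1499 and 1629 with the block added. For panicle against root it was 833 and 775 with the replicate block, 894 and 800 with scan date as a block, 412 and 390 in fits of the compared groups, 279 and 277 without root replicate 2 and 550 and 548 without callus replicate 1. For callus against root it was 1266 and 1214 with the block, 1164 and 1032 with scan date, and 1485 and 1311 or 1395 and 1208 with the block and the 75th percentile or quantile normalization. For callus against panicle it was 713 and 672 with normexp, and 1160 and 1058 or 1042 and 998 with the block and those scalings. The turns without a callus array are given above with the calls. With the replicate block, calls (higher and lower together) numbered 3096 for root against shoot, 2734 for panicle against shoot, 3538 for callus against shoot, 1608 for panicle against root, 2480 for callus against root, 1906 for callus against panicle and 530 for IR64 against NB shoot, and enriched members 513 in callus, 341 in panicle, 489 in root and 603 in NB shoot. Adding the 75th percentile to the block, chosen after the data were seen, gave in the same order 3402, 3128, 3815, 1846, 2796, 2218 and 632, and 648, 351, 536 and 789; adding quantile normalization, chosen likewise, gave 3259, 2901, 3666, 1702, 2603, 2040 and 645, and 594, 334, 499 and 715. Testing only probes detected on every array, which tests fewer probes, gave 1150, 928, 1421, 449, 753, 618 and 112, and 143 in callus, 78 in panicle and 139 in root. Fits of the compared groups only, which hold fewer arrays, gave 1461 for callus against shoot, 413 for callus against root, 386 for callus against panicle and 33 for IR64. With scan date as a block there were 1694 for panicle against root, 2196 for callus against root and 442 enriched in callus. Normexp gave 429 enriched in callus and 515 in NB shoot, and the 75th percentile alone 469 in NB shoot; the cause was not tested. That scaling moved the median of all probes in panicle against shoot on S1 to −0.30, against −0.05 as scaled here.

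Leaving out 1 array of each design at a time gave 1046 to 2136 calls for root against shoot, 712 to 1745 for panicle against shoot, 1206 to 2550 for callus against shoot, 530 to 1098 for panicle against root, 678 to 1449 for callus against root, 556 to 1076 for callus against panicle and 89 to 284 for IR64 against NB shoot, and 117 to 411 enriched in callus, 106 to 219 in panicle, 164 to 321 in root and 159 to 332 in NB shoot. The arrays that moved a count by over 1.5 times were those of the compared groups: either NB shoot replicate (1114 and 1111 for root against shoot, 756 and 770 for panicle, 1280 and 1206 for callus, 89 and 103 for IR64, 174 and 168 enriched in NB shoot), replicate 1 or 2 of panicle (712 and 908 against shoot, 556 and 691 for callus against panicle, 106 and 130 enriched in panicle, 124 and 178 in callus), replicate 1 or 2 of root (639 and 556 for panicle against root, 842 and 678 for callus against root, 149 and 163 enriched in callus), and either IR64 replicate (134 and 112). Counts that moved with 1 replicate only did so without root replicate 2 (1046 for root against shoot, 164 enriched in root), callus replicate 2 (1434 for callus against shoot, 117 enriched in callus), panicle replicate 1 (530 for panicle against root, 191 enriched in root, 159 in NB shoot), NB shoot replicate 1 (129 enriched in panicle) and NB shoot replicate 2 (181 enriched in callus). Without panicle replicate 1, S2 held no panicle array and its panicle calls come from S1 alone. Over all arrays left out in turn, members detected in at least 1 NB tissue ranged from 7701 to 8096 and in all 4 from 5668 to 6118, and the differences in share from −4.66 to −4.25 and 14.4 to 15.4 points on S1 and −5.16 to −4.43 and 17.7 to 20.0 on S2. Among the alternative values of named probes, 859 kept their call or stayed within the spread between replicates, 137 moved further and 46 lost their call. The median background-subtracted signal of an array ran from 37.5 to 178.7, which limits detection on the dim arrays.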
